A study of Homo sapiens with 8 samples.

Results

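The genes of the LSD1 enzyme and of proteins that work with it were examined for dimethylation of lysine 4 of histone H3 (H3K4me2), the mark that LSD1 removes. They are 9 loci: KDM1A, which encodes LSD1, its paralog KDM1B, the complex members RCOR1, HDAC1, HDAC2, PHF21A and HMG20B, and the repressors REST and GFI1 that recruit the complex. The members are all deposited peaks that overlap these genes' hg19 intervals, given to the nearest 1 kb and widened by 10 kb on each side. They number 126 of 280986 peaks in 6 lists, namely 20 and 19 peaks in siCtrl replicates 1 and 2, 26 and 21 in siLSD1 replicates 1 and 2, and 17 and 23 in the pooled siCtrl and siLSD1 lists. All samples are RD cells, an established human rhabdomyosarcoma line, at passages p10-p15. They were transfected with a control siRNA (siCtrl) or with a single siRNA construct against LSD1 (siLSD1) and harvested after 96 hours, with 2 chromatin immunoprecipitation libraries per siRNA. The design text calls the replicates biological, and p-values measure only the spread between these libraries.

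LSD1 is a flavin-dependent demethylase that acts on mono- and dimethylated lysine 4 of histone H3. In the CoREST complex, the scaffold RCOR1 links it to nucleosomes and to the histone deacetylases HDAC1 and HDAC2, so that methyl and acetyl groups can be removed together. The complex is best known for holding neuronal genes silent outside neurons through REST, and for repression through GFI1 in blood cells. H3K4me2 itself lies at promoters and enhancers, so a peak at one of these genes marks a promoter or enhancer that is active or poised. It does not report the level of the protein, and the knockdown was not measured in these data.

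The 4 library lists held from 33878 to 50587 peaks and covered from 70.1 to 104 Mb, with siCtrl replicate 1 the shortest and both siLSD1 lists longer than both siCtrl lists. The lists give no read depth. Whether list length contributes to the differences below was not tested apart from the alternatives named with them. Among markers of cell type, the 5′ ends of the muscle genes MYOD1, MYOG and DES had a peak in all 4 libraries, as did the epithelial gene EPCAM, while those of PTPRC (blood) and ALB (liver) had none. Kilobases under peaks at the 3 muscle loci were below both siCtrl values in each siLSD1 library, with a median difference of -1.74 kb. Over 10-kb windows of the genome, which differ in size from these loci, 8.32% were lower in both siLSD1 libraries. The 3 loci were chosen as markers of cell type, and no alternative setting is given for them.

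The promoter sequences of 9 genes were matched by symbol to the RefSeq table (GRCh38.p14), which lists 14 starts for them. The 6 below are shown because H3K4me2 of promoters is known to accompany CpG-rich sequence, and because the results turn on these loci. Each is the 250 bases before a start, 5′ to 3′ on the gene's strand, with CpG dinucleotides in capitals. The GRCh38 positions are chr1:23019218-23019467 (plus strand) for KDM1A, chr6:18155172-18155421 (plus) for KDM1B, chr11:46121455-46121704 and chr11:46120820-46121069 (minus) for PHF21A, chr19:3572694-3572943 (plus) for HMG20B and chr1:92486926-92487175 (minus) for GFI1.
KDM1A: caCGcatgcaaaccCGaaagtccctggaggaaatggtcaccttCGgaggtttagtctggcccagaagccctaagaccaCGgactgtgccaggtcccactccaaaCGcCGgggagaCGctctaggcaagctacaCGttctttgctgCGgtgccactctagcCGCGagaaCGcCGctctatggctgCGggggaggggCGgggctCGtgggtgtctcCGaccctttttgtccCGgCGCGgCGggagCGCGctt
KDM1B: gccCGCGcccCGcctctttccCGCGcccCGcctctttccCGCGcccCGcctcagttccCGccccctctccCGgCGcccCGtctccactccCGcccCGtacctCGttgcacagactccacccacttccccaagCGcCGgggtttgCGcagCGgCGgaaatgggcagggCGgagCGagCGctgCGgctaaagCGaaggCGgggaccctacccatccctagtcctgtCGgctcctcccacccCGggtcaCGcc
PHF21A first start: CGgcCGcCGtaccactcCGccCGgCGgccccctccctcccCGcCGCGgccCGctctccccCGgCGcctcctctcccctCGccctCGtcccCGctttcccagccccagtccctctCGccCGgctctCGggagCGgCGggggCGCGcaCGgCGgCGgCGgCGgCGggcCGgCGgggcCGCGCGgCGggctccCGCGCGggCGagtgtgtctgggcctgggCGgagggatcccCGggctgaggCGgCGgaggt
PHF21A second start: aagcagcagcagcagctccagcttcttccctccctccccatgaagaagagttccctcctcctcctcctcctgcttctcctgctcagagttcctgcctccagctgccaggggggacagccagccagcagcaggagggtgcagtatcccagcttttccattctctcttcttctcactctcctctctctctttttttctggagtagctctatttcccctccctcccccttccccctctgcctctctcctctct
HMG20B: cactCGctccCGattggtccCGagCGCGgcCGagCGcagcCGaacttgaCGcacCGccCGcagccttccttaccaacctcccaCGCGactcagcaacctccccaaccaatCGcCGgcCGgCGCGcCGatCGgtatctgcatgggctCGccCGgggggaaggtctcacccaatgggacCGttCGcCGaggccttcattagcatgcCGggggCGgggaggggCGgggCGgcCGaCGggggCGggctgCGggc
GFI1 first start: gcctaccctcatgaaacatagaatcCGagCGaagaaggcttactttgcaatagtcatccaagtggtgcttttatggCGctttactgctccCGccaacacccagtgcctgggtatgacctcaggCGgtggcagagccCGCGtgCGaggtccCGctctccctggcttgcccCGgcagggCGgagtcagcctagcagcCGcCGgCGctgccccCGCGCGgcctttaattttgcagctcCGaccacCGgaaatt
The KDM1A sequence held 23 CpG, KDM1B 30, HMG20B 33, the first PHF21A start 42 and the first GFI1 start 19. The second PHF21A start held 0. Over 35116 promoters of the table the median was 11, and 13 of the 14 member starts were above it. The left part of the REST element (TTCAGCACC), its right part and the GFI1 core (AAATCAC) were searched on both strands, and 0 of the 14 windows held any of them. They occur in 0.288%, 0.199% and 2.74% of all promoters in the table.

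The 5′ end of every one of the 9 genes carried H3K4me2 in all 4 libraries. Peaks of the 4 libraries that overlapped were merged into regions, which gave 22 regions in the 9 loci. Of these, 15 (68.2%) were common, that is, had a peak in each library, against 45.2% of 58952 regions over all chromosomes. The regions at the 5′ ends numbered 10, all common, since KDM1B had a pair. Here the 5′ end means the end of the gene's interval, within 2 kb. These 10 regions were from 1.61 to 6.15 kb wide with a median of 4.54 kb, and the 15 common regions of the loci had a median width of 4.24 kb against 2.79 kb for all 26653 common regions. At each of the 9 loci, more of this sequence lay inside the interval than before its 5′ edge. Intervals are given to the nearest 1 kb and differ in length from the RefSeq genes by at most 2.5 kb. How the sequence divides at the start of the gene itself is therefore not known.

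**Figure D1:**
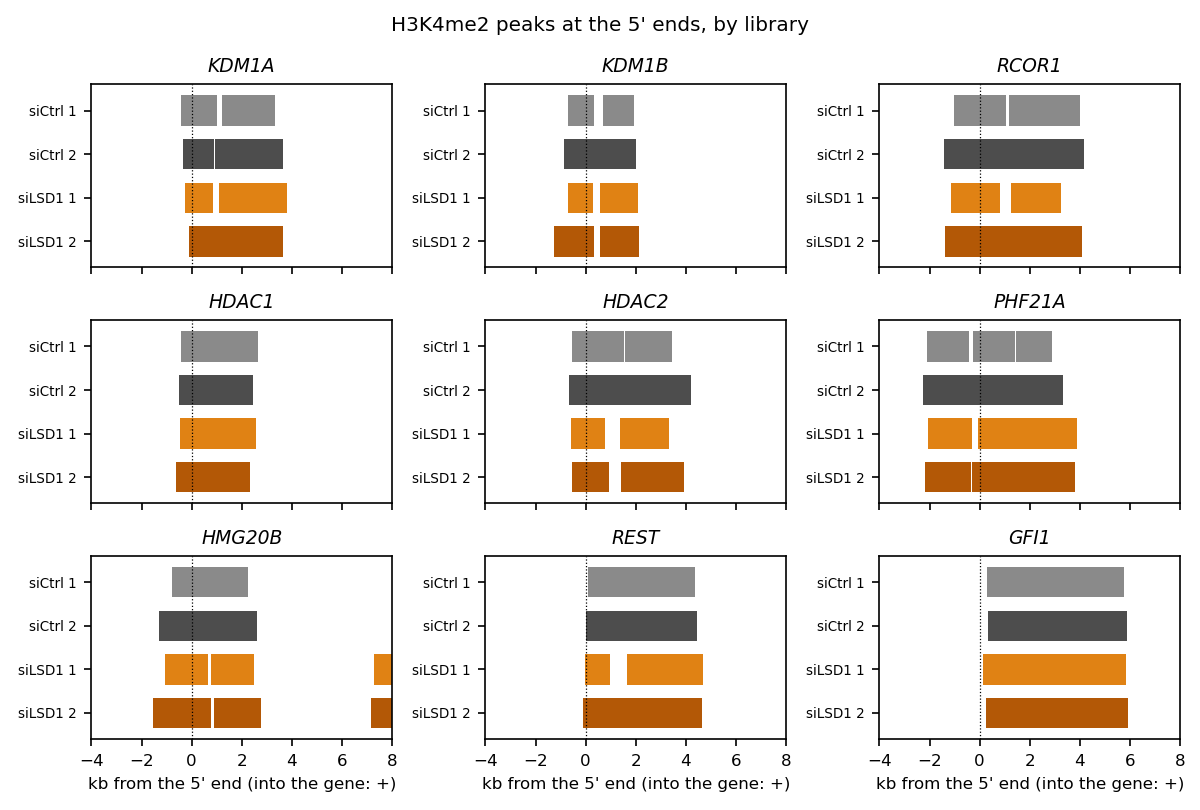
Peaks of the 4 libraries at the 5′ ends of the 9 genes (x axis: kb from the 5′ end of the interval, positive into the gene; rows: libraries; bars: peaks). Every library has a peak at each 5′ end, HDAC1 and GFI1 have 1 unbroken peak in each library, and the gap of 6 bp at KDM1B in siCtrl replicate 2 is too narrow to be drawn.

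The comparison of siLSD1 with siCtrl asked whether knockdown of the enzyme changed its mark on the genes of its own complex. At most of the 9 loci the libraries of the 2 siRNAs overlapped. Summed over the loci, peaks covered 49.3 and 57.2 kb in siCtrl replicates 1 and 2 and 55.6 and 59.0 kb in siLSD1 replicates 1 and 2. The means were 53.2 ± 5.54 kb (SD, n = 2) and 57.3 ± 2.45 kb (SD, n = 2). The siLSD1 mean was 4.07 kb higher, a ratio of 1.08 (two-sided exact permutation p = 0.667, where 2 libraries against 2 allow no p below 0.333). Over all peaks the ratio of covered length was 1.23. The difference was 0.663 kb with equal numbers of peaks per list, 0.156 kb without siCtrl replicate 1, 7.99 kb without siCtrl replicate 2 and 2.34 kb without siLSD1 replicate 2. It was 1.64 kb with no widening of the intervals and 9.49 kb with 25 kb on each side. It turned to -7.83 kb when each library was scaled to its total covered length and to -0.0612 kb when scaled to its median common region.

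HMG20B, PHF21A and GFI1 had more sequence under peaks in each siLSD1 library than in either siCtrl library, HDAC1 had less, and 5 loci overlapped. Over 10-kb windows of the genome, 35.6% were higher in both siLSD1 libraries and 8.32% lower, and of the 23 windows that overlap the loci 6 and 2 were. These windows differ in size from the loci. Scaled to total covered length, HMG20B alone was above and 6 loci were below, GFI1 and PHF21A among them. Scaled to the median common region, HMG20B was above and HDAC1 and HDAC2 below. Single libraries moved both counts. Without siCtrl replicate 1, 3 loci were above and 3 below, and without siCtrl replicate 2, 5 were above and 1 below. Without siLSD1 replicate 1, 6 were above and 1 below, and without siLSD1 replicate 2, 3 were above and 4 below (RCOR1, HDAC1, HDAC2 and REST). Leaving out a library can only keep or raise such counts. The shares of all windows at these settings and under the scalings are not given. Of all common regions, 52.9% were broader without siLSD1 replicate 1, against 30.3% with all libraries.

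**Figure D2:**
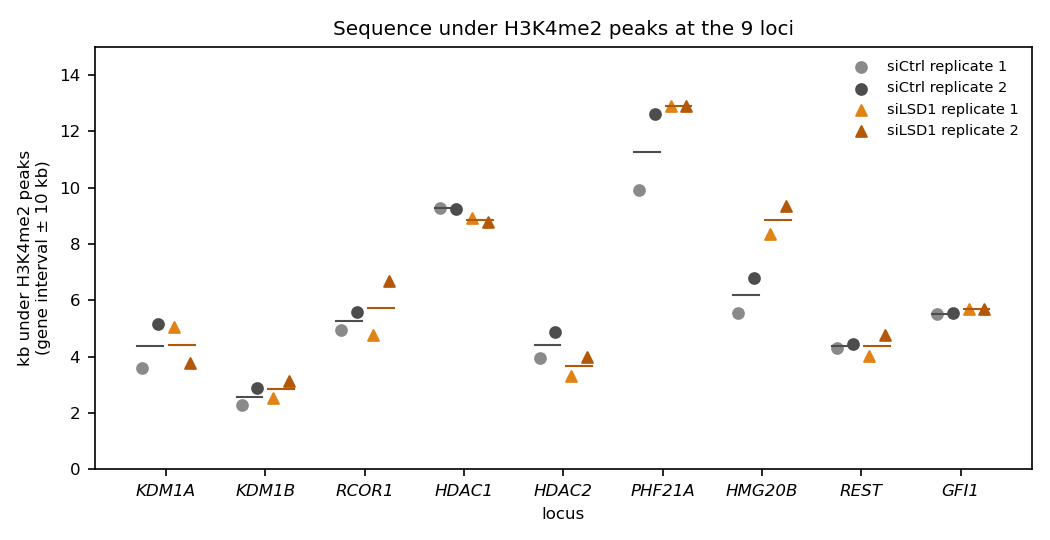
Sequence under H3K4me2 peaks in each locus, widened by 10 kb (y axis, kb), by library (points) with the group mean (short lines). HMG20B is the locus with the widest space between the groups, at 5.56 and 6.80 kb in the siCtrl and 8.36 and 9.34 kb in the siLSD1 libraries, while KDM1A, KDM1B, RCOR1, HDAC2 and REST overlap.

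Of the 22 regions, 1 was gained, with a peak in both siLSD1 libraries and neither siCtrl library, and 0 were lost, the reverse case. Over all chromosomes 6.97% of regions were gained and 1.04% lost. Of the 15 common regions, 5 were broader in each siLSD1 library than in either siCtrl library, against 30.3% of all common regions, and 1 was narrower, against 9.62%. The remaining 9 overlapped. These shares of the loci, 33.3% and 6.67%, lie near those of the genome. The median difference was 0.093 kb over the 15 regions and 0.126 kb over all common regions. Scaled to total covered length, 0 of the 15 were broader and 12 narrower, and scaled to the median common region, 2 were broader and 5 narrower. Single libraries moved these counts too. Without siCtrl replicate 1, 1 region was lost (7.05% of all regions at that setting) and 6 were narrower (30.7% of all common regions). Without siCtrl replicate 2, 2 were gained (19.5% of all), 8 broader (63.1%) and 2 narrower (14.1%). Without siLSD1 replicate 1, 2 were gained (17.9% of all) and 8 broader (52.9%). Without siLSD1 replicate 2, 3 were gained (16.8% of all) and 6 narrower (26.03%). Over all common regions the 2 scalings gave 5.57% broader and 48.4% narrower, and 17.1% and 25.2%.

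**Figure D3:**
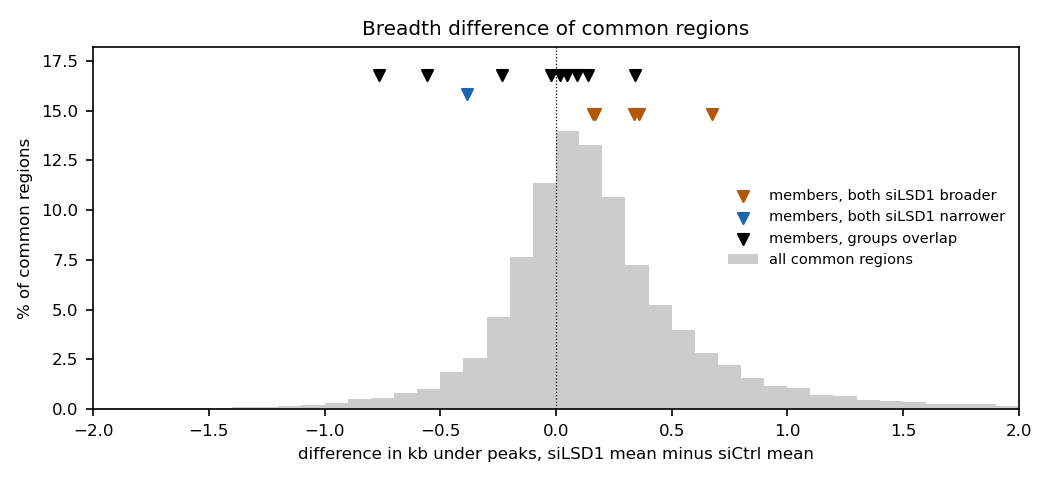
Difference in kb under peaks between the siLSD1 and siCtrl means (x axis) for all 26653 common regions (grey bars, % of regions per 0.1-kb step, with 1.31% outside the axis) and for the 15 common regions of the 9 loci (triangles). The triangles lie between -0.767 and 0.677 kb, within the range of all regions.

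The test of single 10-kb windows over the whole genome with limma called 0 windows of the loci. Of 43372 windows tested, 23 overlapped the widened loci, and 0% of all windows were called higher and 0% lower at a Benjamini-Hochberg adjusted p under 0.05. At an unadjusted p under 0.05, limma had 2 of the 23 higher and 0 lower, against 12.4% and 1.94% of all windows. The smaller p was in the window of chromosome 19 from 3580001 to 3590000. This window lies in the widening beyond the 3′ edge of the HMG20B interval, on the side of the neighbouring gene GIPC3. It takes in part of the gained region, which runs from 3579143 to 3581366, so its p-value and the gained call are not separate observations. The window had 2.53 and 2.89 kb in siCtrl replicates 1 and 2 and 4.22 and 4.28 kb in siLSD1 replicates 1 and 2. The difference was 1.54 ± 0.229 kb (SE, n = 2 per group), with a limma p of 0.00449 and an adjusted p of 0.129. The other was at PHF21A, in the window of chromosome 11 from 46130001 to 46140000, where 0 and 0.308 kb were under peaks in the siCtrl and 0.880 and 0.822 kb in the siLSD1 libraries. The difference was 0.697 ± 0.201 kb (SE, n = 2 per group), with a limma p of 0.0333 and an adjusted p of 0.269.

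KDM1A, the gene of LSD1 and the target of the siRNA, lies on the plus strand of chromosome 1 from 23345000 to 23411000. Its locus had 3.59 and 5.15 kb under peaks in siCtrl replicates 1 and 2 and 5.06 and 3.78 kb in siLSD1 replicates 1 and 2. Both siLSD1 values lay between the siCtrl values, and the means were 4.37 ± 1.10 and 4.42 ± 0.905 kb (SD, n = 2 each). At the CpG-rich start shown above, the region from 23344572 to 23348807 had 3.59 and 3.93 kb after siCtrl and 3.84 and 3.78 kb after siLSD1. The authors' scores of its highest peak ranked at percentiles 40.0 and 68.8 of the 2 siCtrl lists and 85.6 and 85.5 of the 2 siLSD1 lists. Ranks come from lists of different lengths and show no change by themselves. The region was broken into 2 peaks in 3 libraries, with gaps of 177 and 53 bp in siCtrl replicates 1 and 2 and of 247 bp in siLSD1 replicate 1, and was 1 peak of 3780 bp in siLSD1 replicate 2. A further region upstream, from 23336910 to 23338149 on the side of the neighbouring gene TEX46, had a peak in siCtrl replicate 2 (1.21 kb) and siLSD1 replicate 1 (1.22 kb) and none in the other libraries. It thus followed neither siRNA.

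KDM1B encodes LSD2, a related demethylase that acts outside the CoREST complex, and lies on the plus strand of chromosome 6 from 18155000 to 18225000. Its locus had 2.26 and 2.88 kb under peaks after siCtrl and 2.52 and 3.15 kb after siLSD1, the lowest levels of the 9 loci in each library. All of it was at the 5′ end, in a pair of regions from 18153734 to 18155527 and from 18155534 to 18157145, with no peak along the rest of the gene. The gap between the paired peaks was 381 and 6 bp in siCtrl replicates 1 and 2 and 280 and 266 bp in siLSD1 replicates 1 and 2. The upstream region had 1.03 and 1.40 kb after siCtrl and 1.02 and 1.59 kb after siLSD1, and the groups overlapped. The downstream region had 1.23 and 1.482 kb after siCtrl and 1.499 and 1.55 kb after siLSD1. Both siLSD1 libraries were thus above both siCtrl libraries there, although siCtrl replicate 2 and siLSD1 replicate 1 nearly met. The order was reversed when libraries were scaled to total covered length, and kept when scaled to the median common region.

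RCOR1, the CoREST scaffold, lies on the plus strand of chromosome 14 from 103058000 to 103197000. Its locus had 4.95 and 5.59 kb under peaks after siCtrl and 4.76 and 6.67 kb after siLSD1, so that the siLSD1 libraries enclosed the siCtrl values. The 5′ region from 103056584 to 103062169 had 4.95 and 5.59 kb after siCtrl and 3.96 and 5.47 kb after siLSD1, and means of 5.27 ± 0.447 and 4.71 ± 1.07 kb (SD, n = 2 each). It was 1 peak in both replicates 2, and 2 peaks in both replicates 1, with gaps of 113 bp in siCtrl and 442 bp in siLSD1. Inside the gene, a region from 103121272 to 103122475 had a peak only in siLSD1 replicate 2 (score percentile 19.1), and one from 103159160 to 103159967 only in siLSD1 replicate 1 (percentile 11.6). Neither was shared by both siLSD1 libraries, although both had a peak in the pooled siLSD1 list and none in the pooled siCtrl list.

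With all peaks and no scaling, the deacetylase genes were the loci whose siLSD1 means were below the siCtrl means, though the HDAC2 groups overlapped. With equal numbers of peaks, KDM1A, KDM1B and RCOR1 were below as well (-1.12, -0.249 and -0.558 kb). Scaled to total covered length, every locus but HMG20B was below. HDAC1 lies on the plus strand of chromosome 1 from 32757000 to 32800000 and had 9.29 and 9.23 kb under peaks after siCtrl and 8.93 and 8.79 kb after siLSD1. Both siLSD1 libraries were lower, at 8.86 ± 0.101 against 9.26 ± 0.0417 kb (SD, n = 2 each). The difference was not at the promoter. The 5′ region from 32756358 to 32759646 had 3.07 and 2.94 kb after siCtrl and 3.01 and 2.96 kb after siLSD1, and the groups overlapped. The difference lay in a region from 32798758 to 32805182, which crosses the 3′ edge of the interval on the side of the neighbouring gene MARCKSL1. It measured 6.23 and 6.29 kb in the siCtrl libraries and 5.92 and 5.83 kb after siLSD1. Most of it lay beyond that edge, with 5.015 and 5.049 kb after siCtrl and 5.182 and 5.026 kb after siLSD1 in the next 10-kb window. Which gene the region belongs to was not tested. The region was the only common region of the loci narrower in both siLSD1 libraries. Its border on the HDAC1 side was 41.8 kb from the 5′ end of the interval in both siCtrl libraries. In siLSD1 replicates 1 and 2 that border was at 42.3 and 42.2 kb, while the other border stayed between 48.0 and 48.2 kb in all 4. The RefSeq gene is 41.5 kb long and the interval 43 kb, so whether the first border lies inside the gene is not known. The pooled lists had the same order at this region, 7.38 kb for siCtrl and 6.96 kb for siLSD1, with the inner border at 41.1 and 42.1 kb. For the whole locus their order was the opposite, 11.4 and 12.9 kb, through the 5′ region. With 25 kb on each side the libraries of the 2 siRNAs overlapped.

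HDAC2, on the minus strand of chromosome 6 from 114257000 to 114293000, had a single region, at its 5′ end from 114288776 to 114293656. It had 3.95 and 4.88 kb after siCtrl and 3.31 and 3.99 kb after siLSD1. The mean difference of -0.767 kb was the largest of the 15 common regions in size, but siLSD1 replicate 2 lay above siCtrl replicate 1. The peak was unbroken in siCtrl replicate 2. It was broken by 43 bp in siCtrl replicate 1, by 615 and 479 bp in siLSD1 replicates 1 and 2, and by 295 bp in the pooled siLSD1 list but not in the pooled siCtrl list. With the upper 50% of each list by score the difference at the locus was 0.183 kb, and it was -0.2995 kb without siCtrl replicate 2 and -0.424 kb without siLSD1 replicate 1. It was -1.23 kb without siCtrl replicate 1 and -1.64 kb when scaled to total covered length. In these 2 settings, and also without siLSD1 replicate 2 and when scaled to the median common region, HDAC2 was lower in each siLSD1 library left than in each siCtrl library left.

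PHF21A encodes BHC80, which binds histone H3 with unmethylated lysine 4, and is the longest of the 9 genes, on the minus strand of chromosome 11 from 45950000 to 46143000. Its locus had 9.92 and 12.6 kb under peaks after siCtrl and 12.9 and 12.9 kb after siLSD1. Both siLSD1 libraries were higher, with a mean difference of 1.64 kb that was 0.288 kb without siCtrl replicate 1, 2.98 kb without siCtrl replicate 2 and -0.856 kb when scaled to total covered length. The groups overlapped with equal numbers of peaks (0.915 kb), with the upper 50% by score, with no widening of the interval and when scaled to the median common region. At the 5′ end, the region from 46139121 to 46145265 had 4.80 and 5.57 kb after siCtrl and 5.73 and 5.99 kb after siLSD1. Its border inside the gene was 2.90 and 3.31 kb from the 5′ end in siCtrl replicates 1 and 2 and 3.88 and 3.82 kb in siLSD1 replicates 1 and 2. Its upstream border lay at -2.09 and -2.27 kb in the siCtrl and at -2.08 and -2.20 kb in the siLSD1 libraries, before the 5′ end. The region was thus broader on the gene side, in the window with the unadjusted limma p of 0.0333. It was narrower in both siLSD1 libraries when scaled to total covered length, and broader in both when scaled to the median common region.

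Within PHF21A, a region from 46047952 to 46049320 had a peak in siCtrl replicate 2 (0.999 kb) and in siLSD1 replicates 1 and 2 (1.23 and 1.14 kb) but not in siCtrl replicate 1. A common region from 46070772 to 46072616 had 1.39 and 1.78 kb after siCtrl and 1.16 and 1.54 kb after siLSD1, and the groups overlapped. A pair of narrow regions, from 46004345 to 46004970 and from 46025075 to 46025627, had a peak in 1 library each, siLSD1 replicate 1 and siCtrl replicate 2. Beyond the 3′ end, toward the neighbouring gene LARGE2, the region from 45943170 to 45946094 had 2.66 and 2.42 kb after siCtrl and 2.92 and 2.83 kb after siLSD1, so that both siLSD1 libraries were higher. Neither scaling kept this order. The next region, from 45937805 to 45941387, had 2.93 and 3.49 kb after siCtrl and 3.36 and 3.34 kb after siLSD1. Both of these regions lie outside the PHF21A interval and are counted only through its widening. With no widening the means of the locus were 5.44 kb after siCtrl and 6.70 kb after siLSD1, and the groups overlapped.

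HMG20B encodes BRAF35, the subunit with a DNA-binding HMG box, and lies on the plus strand of chromosome 19 from 3572000 to 3580000. Its locus had 5.56 and 6.80 kb under peaks after siCtrl and 8.36 and 9.34 kb after siLSD1. Both siLSD1 libraries were higher, at 8.85 ± 0.689 against 6.18 ± 0.877 kb (SD, n = 2 each). The mean difference of 2.67 kb kept its sign in all 10 alternatives. Those that leave out a library could not change the sign, since the groups did not overlap. The difference lay between 0.700 kb (upper 50% by score, where the groups overlapped) and 4.91 kb (25 kb on each side). With no widening of the interval it was 0.8765 kb, and both siLSD1 libraries were still higher. The locus held the 1 gained region, from 3579143 to 3581366, which spans the 3′ end of the interval and reaches toward the neighbouring gene GIPC3. The RefSeq gene is 6.14 kb long and the interval 8 kb, so whether the region reaches into HMG20B itself is not known. The gained region had 0 kb after siCtrl and 1.71 and 2.22 kb in siLSD1 replicates 1 and 2. It had 2.25 kb in the pooled siLSD1 list against 0 kb in the pooled siCtrl list. Its peak ranked at score percentiles 57.0 and 34.5 of the 2 siLSD1 lists and 57.2 of the pooled list. The call held with equal numbers of peaks per list. Leaving out a library could not undo it, since a region gained with all 4 libraries stays gained with fewer. It was not made with the upper 50% of each list by score.

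The other regions of HMG20B had a peak in all 4 libraries. The 5′ region from 3570473 to 3574774, at the CpG-rich start shown above, had 3.03 and 3.91 kb after siCtrl and 3.43 and 4.20 kb after siLSD1, and the groups overlapped. It was 1 peak in both siCtrl libraries and 2 peaks in both siLSD1 libraries, with gaps of 103 and 100 bp, and the pooled siLSD1 list had no gap there. Downstream, the region from 3584531 to 3587756 on the side of GIPC3 had 2.53 and 2.89 kb after siCtrl and 3.23 and 2.91 kb after siLSD1. Both siLSD1 libraries were higher there, but siLSD1 replicate 2 and siCtrl replicate 2 nearly met. Under both scalings this order was not kept.

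**Figure D4:**
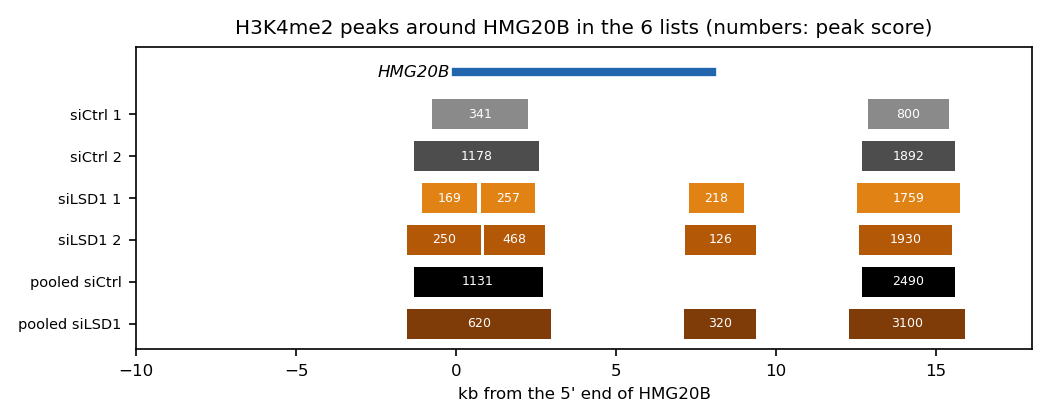
Peaks around HMG20B in the 4 library lists and 2 pooled lists (x axis: kb from the 5′ end of HMG20B; rows: lists; bars: peaks with the authors' score; blue line: the gene's interval). The peak that starts between 7.12 and 7.29 kb from the 5′ end is present in both siLSD1 libraries and the pooled siLSD1 list and in none of the siCtrl lists.

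REST encodes the zinc finger repressor that brings CoREST to neuronal genes, and lies on the plus strand of chromosome 4 from 57773000 to 57803000. Its only region, at the 5′ end from 57772881 to 57777667, had 4.29 and 4.46 kb after siCtrl and 4.03 and 4.75 kb after siLSD1. The means were 4.37 ± 0.122 and 4.39 ± 0.507 kb (SD, n = 2 each), and the siLSD1 values enclosed the siCtrl values. The lower siLSD1 value came with a gap of 665 bp in siLSD1 replicate 1, where the other libraries had 1 unbroken peak. Its outer borders lay between -0.119 and 0.082 kb and between 4.37 and 4.67 kb from the 5′ end in the 4 libraries. No peak lay elsewhere in the gene in any of the 6 lists.

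GFI1 encodes a zinc finger repressor of blood cells that recruits LSD1 through its SNAG domain, and lies on the minus strand of chromosome 1 from 92940000 to 92953000. In these muscle tumour cells it carried the peak with the highest score of the 9 loci in each library list. Its single region, from 92947076 to 92952859, was 1 unbroken peak with a score of 3100 in all 6 lists. That score was shared by 15, 770, 41 and 191 peaks of siCtrl replicates 1 and 2 and siLSD1 replicates 1 and 2, so peaks at this value cannot be ranked among themselves. The peak stood at score percentiles from 98.9 to 99.97 and at width percentiles from 97.5 to 98.4 of the 4 library lists. Breadth was 5.50 and 5.55 kb after siCtrl and 5.69 and 5.68 kb after siLSD1. Both siLSD1 libraries were higher, at 5.68 ± 0.00919 against 5.52 ± 0.0339 kb (SD, n = 2 each), a difference of 0.161 kb. Scaled to total covered length the difference was -1.11 kb, with both siLSD1 libraries below, and scaled to the median common region it was -0.281 kb.

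**Figure D5:**
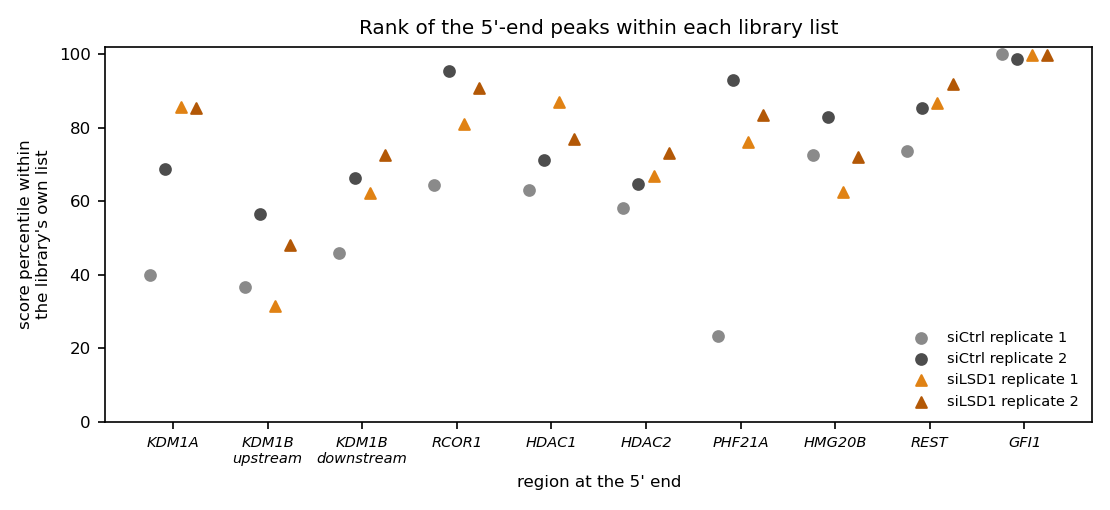
Score percentile of the highest peak in each 5′ region (y axis, within the library's own list, 100 being the highest score) by library (points), for the 9 genes, with the 2 KDM1B regions apart. GFI1 lies at the top in each library, KDM1A at 40.0 and 68.8 in the siCtrl and 85.6 and 85.5 in the siLSD1 lists, and PHF21A ranges from 23.4 to 92.9 within siCtrl.

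The ranks at the other 5′ regions also differed between replicates of 1 siRNA. The PHF21A 5′ peak stood at percentile 23.4 of siCtrl replicate 1, where the region was broken into 3 peaks, and at 92.9 of siCtrl replicate 2, where it was 1 peak. The RCOR1 5′ peak stood at 64.4 and 95.6 of these lists and at 81.1 and 90.9 of siLSD1 replicates 1 and 2. The REST 5′ peak stood at 73.6 and 85.4 after siCtrl and 86.6 and 91.9 after siLSD1, and the HDAC2 peak at 58.1 and 64.7 and at 67.0 and 73.1. At HDAC1 the promoter peak stood at 63.2 and 71.4 and at 87.1 and 76.9, and at HMG20B at 72.7 and 83.0 and at 62.6 and 72.0. The KDM1B upstream region stood at 36.6 and 56.5 and at 31.5 and 48.1, and the downstream region at 46.0 and 66.4 and at 62.2 and 72.6. Broken peaks were found in each library. The 10 regions at the 5′ ends held 15 and 11 peaks in siCtrl replicates 1 and 2 and 16 and 13 in siLSD1 replicates 1 and 2.

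The pooled lists, for which the design text states that both replicates were combined, gave 5 of 23 siLSD1 peaks in the loci that overlapped no pooled siCtrl peak (21.7%, against 27% of all pooled siLSD1 peaks) and 0 of 17 in the reverse direction (against 8.86%). Of these 5, the HMG20B peak alone was present in both siLSD1 libraries. The 2 at RCOR1 and 1 at PHF21A had a peak in 1 library each, and the last, within PHF21A from 46121355 to 46122050, had none. At HDAC1 the 5′ region measured 4.05 kb in the pooled siCtrl and 5.92 kb in the pooled siLSD1 list, although each library had between 2.94 and 3.07 kb.

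Other genes linked to LSD1 were read at intervals set to the nearest 1 kb. They were the scaffolds RCOR2 and RCOR3, the SNAG-domain repressors GFI1B, SNAI1 and INSM1, and the complex members ZMYM2, ZMYM3 and CTBP1. SIN3A and RREB1 were read as well. All 10 had a peak at the 5′ end in all 4 libraries. Kilobases under peaks were higher in both siLSD1 libraries at 2 of the 10 and lower at 1, and overlapped at 7. The 2 were GFI1B and ZMYM2 and the 1 was CTBP1. Over 10-kb windows of the genome, which differ in size from these loci, 35.6% were higher in both siLSD1 libraries and 8.32% lower. The median difference over the 10 was 0.258 kb, against 0.161 kb for the 9 loci. The interval length differed from the RefSeq gene length by at most 2.5 kb for 7 of the 10 and for all 9 loci, and the 2 higher genes were among the 3 that did not match.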

How the data were processed

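H3K4me2 was measured by chromatin immunoprecipitation and sequencing in RD cells, in 4 libraries. The 4 input libraries were not analysed here. Per the submitters' processing notes, reads were aligned with Bowtie to hg19. The deposited peak names carry the name of MACS. For versions, settings and the use of inputs, nothing is given in the sources used here. The deposited lists give each peak's start, end and score, the authors' own value of at least 50, used only within a list. Read depth is unknown.

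Peaks on chromosomes 1 to 22 and X were used, with positions counted from 1. Kilobases under peaks were summed per locus, merged region (overlap of at least 1 bp) and 10-kb window. Windows with at least 0.5 kb in at least 2 libraries were tested with limma 3.58.1 (trend, robust; statmod 1.5.0, R 4.3.3), and sums per library with exact permutation (Python 3.11.15, scipy 1.17.1). Building of regions and the window test were tested on simulated data.

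The 9 loci and the lists were chosen with earlier results of these data known. All 9 loci are named, with the 5′ region and any gained, lost or most different region. The remaining regions were described as well, a choice made after their values were seen. Strand, gene length and order of neighbours came from RefSeq tables of GRCh38.p14. Intervals of other genes were set by hand. Both forms of scaling of common regions, and scaling to the median common region, were added after the data were seen. Protein sequences were not used here, and 1 gene of the list of other genes is not reported here.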

Additional observations from a re-analysis of the deposited data

How the results depend on the processing

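The depth of the libraries is unknown, and 2 libraries per siRNA allow no exact p below 0.333. With the upper 50% of each list by score, 0 of 16 regions were gained (6.33% of all regions). Of 10 common regions, 3 were broader (28.7% of all common regions). At that setting limma called 1 window, near KDM1A (chromosome 1 from 23420001 to 23430000, adjusted p = 0.0434), whose peaks lie outside the widened KDM1A interval. With equal numbers of peaks, 1 gained, 0 lost, 5 broader and 1 narrower regions were found. Scaled to total covered length, the summed difference was -7.83 kb, 1 locus was above and 6 below, and 0 common regions were broader and 12 narrower. Scaled to the median common region, these values were -0.0612 kb, 1, 2, 2 and 5. The summed difference was 1.64 kb with no widening of the intervals and 9.49 kb with 25 kb on each side. Leaving out each library gave a summed difference between 0.156 and 7.99 kb, between 3 and 6 loci above and 1 and 4 below, between 1 and 3 gained, 0 and 1 lost, 5 and 8 broader, and 1 and 6 narrower regions, and 0 windows called by limma. Counts of loci above or below cannot fall when a library is left out, and the shares of all windows at those settings are not given. Of 90 values of single loci under the alternatives, 23 changed sign, 0 of them at HMG20B or HDAC1. At both of these loci the groups did not overlap, so leaving out a library could not change the sign. Over all windows, limma called 1178 higher and 126 lower with the upper 50% by score, and 5 and 4 with quantile normalization. With the replicate number as a block, limma called 0 of 23 windows of the loci (smallest adjusted p = 0.176). The labels do not say what a shared number marks. The deviations of same-numbered libraries correlated at 0.15 over 43372 windows, a value that cannot settle whether such libraries were prepared together. The numbers were not taken as pairs in the main test.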
